A study of Homo sapiens with 6 samples.

Results

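Long cassette exons, those of 300 nt or more that can be skipped between a flanking pair of exons, were followed in HEK293A-TOA cells after knockdown of the splicing factor SFSWAP. The members were chosen by length alone, among exons whose junctions were covered by 20 or more reads per library on average, with at least 5 reads of each form over the 6 libraries, with 1 event per exon. This left 3552 of 43287 tested exons, in 2278 genes, and 2799 separate loci once overlapping exons were merged. Before the read filter the deposited table held 11054 exons of this length. The median length was 400 nt, the quartiles were 343 and 474 nt, 248 exons had 1000 nt or more, and the longest had 7113 nt.

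The cells are a human embryonic kidney line. The labels give 3 biological replicates with a non-target siRNA (siNT) and 3 given 2 SFSWAP siRNAs mixed to 40 nM (siSFSWAP), with RNA taken on day 5. Knockdown was partial and used 1 line. In the legend of its knockdown blot for the untreated samples, the study calls its SFSWAP siRNA number 1 ineffective. The deposited tables give the groups as numbers, and siNT was taken to be the first from the definition of the inclusion difference in the study's text. As the lists hold no replicate numbers, the letters a, b and c stand for list positions.

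Most internal exons of human genes are far shorter than 300 nt, and splicing factors usually recognise them as units by pairing the acceptor (3′ splice site) and the donor (5′ splice site) across the exon. Very long exons stretch this pairing, and many of them sit in genes for large structural or zinc finger proteins. SFSWAP is an SR-like nuclear protein with SURP domains that represses splicing of an intron in its own transcript, and known work links it to the exclusion of some cassette exons. A long block between splice sites can also be a pair of exons with the intron between them kept.

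The splice sites of 7 exons that the results turn on are shown, read from GRCh38 on the strand of the gene. Each line gives the last 20 intronic bases in lower case followed by the first 10 exonic bases in capitals.
VCAN acceptor: ctttgaaattatttttctagCTAAAGAGGC
NIN acceptor: tgtatgttgactatatttagGGAAAAAATG
MKI67 acceptor: tttcataattcattgccaagATGAGAAAGC
WNK1 acceptor: gtttttctttaccttcccagCTTCCAGTTT
IRAK1 acceptor: ccaggactggcccttggcagCTCTGCATCA
HNRNPA2B1 acceptor: aaggagaaacacctttttagATCTTTTAGA
PCBP2 acceptor: tttcacttgtatcttaacagGCATTGAATC

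The donors follow, with the last 10 exonic bases in capitals and the first 20 intronic bases in lower case.
VCAN donor: AATAAGACAGgtaagtctttgctttctaga
NIN donor: AACTTCTGAGgtaatgtatgtaccttctag
MKI67 donor: GATTCCATTAgtaagtttatttaattgtaa
WNK1 donor: TCTGTACCAGgtattgtgttagttagcaaa
IRAK1 donor: TCCATCCCAGgtactatttgaagaaccact
HNRNPA2B1 donor: TAGTAAAATGgtaggtaaaagttaggctgc
PCBP2 donor: TCCAGTCTAGgttaggagaatagggggtgg

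All 7 introns before these exons end in ag and all 7 after them begin with gt. Among all long exons, 3536 of 3552 had an AG acceptor and 3444 had a GT donor, with 104 more at GC. A splice site score was computed as the sum of log2 ratios of base frequency to 0.25, from a matrix built on all tested exons. The VCAN exon had the highest donor score of the 7, at 12.4, and the HNRNPA2B1 exon the lowest acceptor score, at 0.15, against a median acceptor score of 7.88 over the long exons.

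SFSWAP itself served as the check on the groups. Its spliced reads were 79.8, 86.6 and 80.3 CPM (counts scaled to the library total) in siNT and 34.7, 34.7 and 21.4 CPM in siSFSWAP. The siSFSWAP mean was 36.8% of siNT, a log2 change of -1.46 (SE 0.16, limma adjusted p = 0.000336). Junction reads per library ran from 19515010 to 55274283, and siNT library a was the deepest. In the fixed marker list VIM, LIN28B and CDH2 had reads in every library, while PAX2, NEFM and the markers of other cell types had no event in the table and were not measured.

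Inclusion is the share that keeps the exon among forms that keep or skip it between the same flanking exons. It comes from inclusion and skipping junction reads divided by their effective lengths. Other forms of the locus are not counted, so values of overlapping exons are not shares of all transcripts. Values are given in percent and changes in percentage points, siSFSWAP minus siNT. In bulk RNA a large change in some cells and a smaller one in all cannot be told apart. An exon was called if its adjusted p was 0.05 or less (quasi-binomial F test over all tested events, Benjamini-Hochberg) and its change 0.2 or more in inclusion (20 points). By this rule 52 long exons in 47 genes were called higher in siSFSWAP, 1.46% of the members, beside 1.31% of all tested exons. Lower calls numbered 15 in 11 genes, 0.422% of the members, beside 0.698% of all tested exons. Higher calls thus made up 77.6% of the long exon calls (95% Wilson interval 66.3 to 85.9%, counting error only) and 65.3% of the calls over all exons. The share of higher calls lay near the background, and the lower calls were fewer than the background share. Many of these calls were not kept in fits without 1 library, which also have fewer libraries to test with. Leaving out 1 siSFSWAP library brought the higher calls to between 7 and 20 and the lower calls to between 7 and 10, and leaving out siNT library b or c brought them to 13 or 17 and to 6 or 10. Without siNT library a there were 110 higher and 13 lower calls. With limma on log2 odds in place of the quasi-binomial test there were 28 higher and 7 lower calls.

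Of the 52 exons called higher, 45 had a siNT mean between 20 and 80%, and the siNT means ran from 6.14 to 79.9%. A change of 20 points limits the siNT mean at the upper end. The siNT means had a median of 57.7% and the siSFSWAP means a median of 88.9%, and the changes ran from 20.1 to 58.9 points. In all 52 the groups did not overlap. A complete separation in this direction was seen for 552 long exons, 15.5% of them, beside 13.7% of all tested exons. The exons called lower ran from changes of -35.6 to -20.5 points, and the groups did not overlap in 14 of 15. Separation downwards held for 7.71% of the long exons, beside 9.42% of all tested exons.

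The siNT libraries were not alike. Over the 52 exons called higher, siNT libraries a, b and c had median inclusions of 66.5%, 53.1% and 42.7%, and the siSFSWAP libraries 88.9%, 89.6% and 87.5%. Library a was the highest siNT library in 43 of these 52 exons, and library c the lowest in 35. These exons were selected for a rise, which fixes the order of the groups. The median SD was 11.9 points within siNT and 4.04 points within siSFSWAP, given as a description. Whether depth has a part in the standing of library a was not tested.

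Taken over every long exon, the siNT libraries a, b and c had median inclusions of 86.0%, 80.4% and 78.9%, and those of siSFSWAP 87.5%, 85.7% and 84.9%. The groups overlapped through siNT library a. The medians averaged 81.8% ± 3.70 for siNT and 86.1% ± 1.31 for siSFSWAP (SD, n = 3). The difference was 4.28 points (exact permutation p = 0.3, two-sided), and 2.24 points over exons with 50 or more reads per library on average. The smallest p that 3 against 3 libraries allow is 0.1. In each library the long exons had a lower median than the 39735 shorter exons, with differences (long minus shorter) of -4.36, -5.31 and -5.90 points in siNT and -2.82, -2.81 and -2.55 points in siSFSWAP. The gap was smaller in every siSFSWAP library, by 2.46 points on average (exact permutation p = 0.1, the smallest possible). Closer comparisons gave less. Long exons without an intron inside against all shorter exons gave 2.23 points (exact permutation p = 0.2), and exons of 20 to 80% mean inclusion gave 1.93 points (exact permutation p = 0.4). Annotated internal exons went the other way, with a long minus shorter gap of -1.27 points in siNT and -1.65 points in siSFSWAP (exact permutation p = 0.4). For single exons the change had a median of 0.348 points over the long exons and 0.242 points over all tested exons.

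Exons that are nearly always kept or nearly always skipped cannot move far in 1 direction, so exons with a mean inclusion of 20 to 80% over the 6 libraries were also compared. There were 404 long exons of this kind and 4466 shorter ones. Of the long exons 40 were called higher and 8 lower, 9.90% and 1.98%. Of the shorter exons 8.06% were called higher and 4.70% lower. The median change was 2.51 points for the long and 2.74 points for the shorter exons. The difference between the length classes was not tested.

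**Figure D1:**
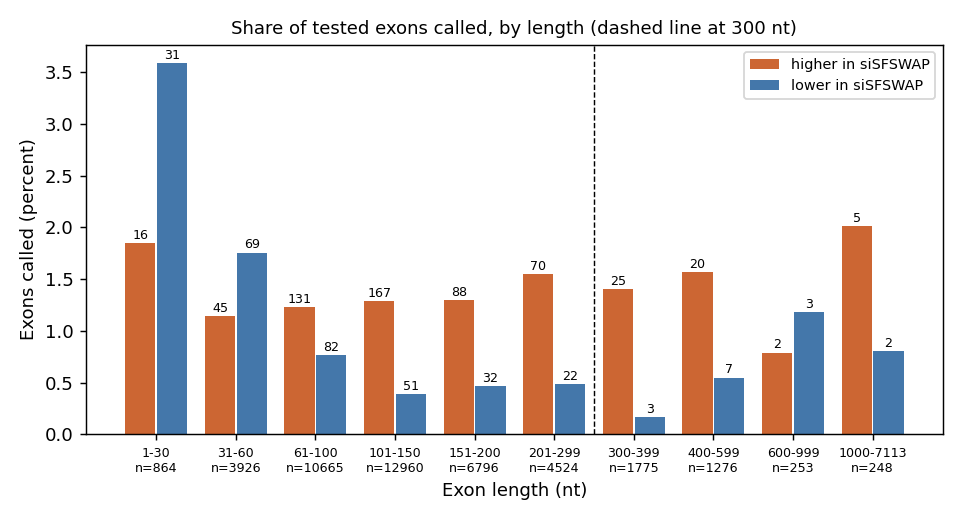
Share of tested exons called higher (orange) or lower (blue) in siSFSWAP by exon length in nt, with the number of calls above each bar, the number of exons below the axis and a dashed line at 300 nt. Lower calls take 3.59% of exons of 30 nt or less and 0.169% of those of 300 to under 400 nt, while higher calls stay between 0.791% and 2.02% in every bin.

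Within the long exons, 25 of 1775 exons of 300 to under 400 nt were called higher and 3 lower. Among 1276 exons of 400 to under 600 nt these were 20 and 7, and among 253 of 600 to under 1000 nt they were 2 and 3. Of the 248 exons of 1000 nt or more, 5 were called higher (VCAN, NIN, MKI67, AKT1 and WDR90) and 2 lower (both of HNRNPA2B1). Lower calls were a larger share above 600 nt than below 400 nt, but those above 600 nt are 5 exons, CUL5 and 4 overlapping forms of HNRNPA2B1. Over all tested exons the plot of calls by length shows the highest shares of lower calls at 60 nt or less.

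Exons that GENCODE release 44 lists as internal exons with no intron inside them numbered 839, with a median siNT inclusion of 91.5%. Of these, 4 were called higher and 3 lower, 0.477% and 0.358%. Both shares were below those over all tested exons, 1.31% and 0.698%. Over all 839 the median inclusion per library was 93.1%, 90.7% and 91.4% in siNT and 93.1%, 91.3% and 92.1% in siSFSWAP. The difference was 0.439 points (exact permutation p = 0.8). The 7 called exons were chosen for description after their values were seen. With limma on log2 odds the calls of VCAN, NIN, WNK1 and PIGG were kept, and the adjusted p was 0.158 for MKI67, 0.109 for ZC3H11A and 0.0812 for CUL5.

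VCAN, the gene of the large extracellular matrix proteoglycan versican, held the largest of these changes. Its exon 7 of 15 (2961 nt, 987 codons, chr5:83519349-83522309) is wholly coding and carries the GAG-alpha region, where glycosaminoglycan chains attach. Versican forms with and without this region are known. Inclusion was 7.91%, 6.67% and 4.00% in siNT and 49.3%, 51.7% and 54.7% in siSFSWAP. Every siSFSWAP library was far above every siNT library. The mean rose from 6.19 ± 2.00 to 51.9 ± 2.7% (adjusted p = 1.42e-05), and the call was kept in all 6 fits without 1 library. The reads were few: inclusion and skipping together gave 75, 16 and 13 reads in siNT and 56, 22 and 41 in siSFSWAP. Of the skipping reads, which join exon 6 to exon 8, siNT had 64, 14 and 12 and siSFSWAP 19, 7 and 12.

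NIN encodes ninein, which anchors microtubules at the centrosome. Exon 18 of 32 (2139 nt, 713 codons, chr14:50756492-50758630) is a known alternative exon of this gene. It was included at 63.4%, 72.9% and 48.3% in siNT and at 91.5%, 88.9% and 95.8% in siSFSWAP. The groups did not overlap, and the mean rose by 30.5 points to 92.1 ± 3.51% (adjusted p = 0.00387). The call was kept in 4 of 6 fits without 1 library, and its adjusted p was 0.103 without siSFSWAP library c.

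MKI67 encodes the proliferation marker Ki-67, a coat protein of mitotic chromosomes, and exon 7 of 15 (1080 nt, 360 codons, chr10:128114928-128116007) separates its long and short forms. Inclusion was 55.5%, 59.2% and 41.2% in siNT and 74.2%, 77.0% and 73.1% in siSFSWAP. The exon rose by 22.8 points (adjusted p = 0.000505) with a mean of 376 reads per library, and the adjusted p was 0.0667 without siSFSWAP library c. A further MKI67 exon of 327 nt, not annotated with these ends, was skipped almost always, at 0.157 ± 0.136% in siNT and 0.330 ± 0.316% in siSFSWAP.

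The fourth rise was in ZC3H11A, a zinc finger protein of mRNA export. Its 309-nt exon 2 lies in the 5′ UTR (chr1:203796293-203796601). Inclusion was 47.2%, 65.9% and 64.4% in siNT and 80.2%, 90.9% and 82.2% in siSFSWAP (adjusted p = 0.011). Here library a was the lowest of siNT, unlike in most risen exons, and without it the adjusted p was 0.167.

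The 3 falls of this class were in WNK1, CUL5 and PIGG. WNK1 is a kinase that regulates ion cotransporters, and its exon 12 of 31 (459 nt, 153 codons, chr12:879573-880031) is a known alternative exon. Inclusion was 21.2%, 40.8% and 37.0% in siNT and 6.73%, 10.4% and 9.82% in siSFSWAP. The siSFSWAP values were all below the siNT values, and the mean fell from 33.0 ± 10.4 to 9.0 ± 1.99% (adjusted p = 0.00062; 0.0918 without siSFSWAP library c). CUL5, a scaffold of ubiquitin ligases, has a partly coding exon 19 of 20 (713 nt, chr11:108104190-108104902). It fell from 91.4 ± 4.42 to 70.2 ± 2.53% (adjusted p = 0.00492; 0.091 without siSFSWAP library c). PIGG, an enzyme of GPI anchor synthesis, has a coding exon 11 of 13 (310 nt, chr4:530436-530745). It fell from 97.7 ± 3.93 to 77.2 ± 8.39% (adjusted p = 0.0273; 0.185 without siSFSWAP library a), with 33 to 142 reads per library. Few of these were PIGG skipping reads, 5, 0 and 0 in siNT and 8, 6 and 4 in siSFSWAP. From summed counts the PIGG change was -18.6 points, short of the 20 points needed for a call.

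**Figure D2:**
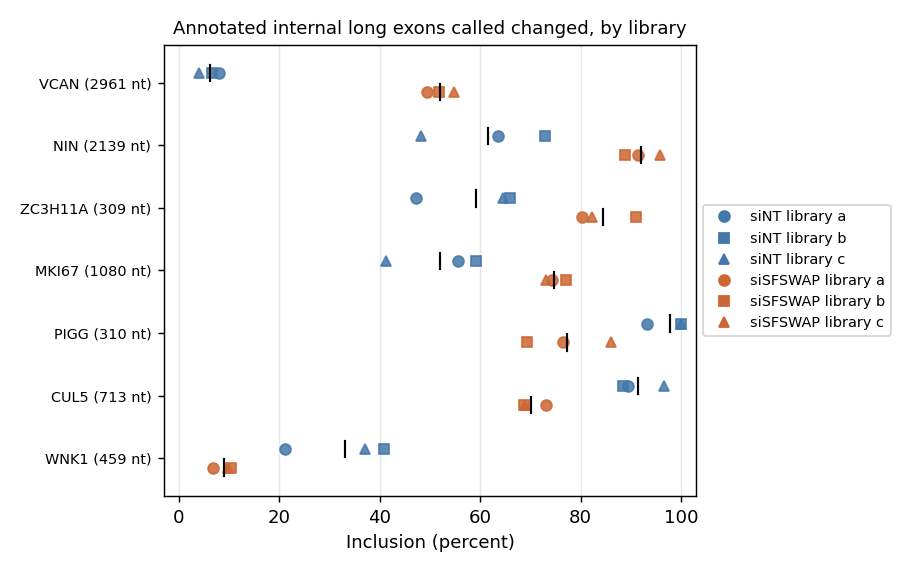
Inclusion in percent of the 7 called annotated internal exons without an intron inside, 1 point per library (blue siNT, orange siSFSWAP; circle, square and triangle for libraries a, b and c) and a bar at each group mean. The groups are apart in all 7, and VCAN moves from 6.19 to 51.9% while WNK1 moves from 33.0 to 9.0%.

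The larger group of calls was of another kind. Of the 3552 long exons, 1078 (30.3%) held an intron: an annotated intron, or one of the deposited retained intron table, lay wholly inside them. For such an exon the inclusion junctions join only its outer ends to the flanking exons. These reads arise whether the inner intron is kept or removed, so inclusion here measures the whole block against its joint skipping. Of the 52 higher calls, 37 held an intron, as did 7 of the 15 lower calls. The share of 71.2% had a 95% Wilson interval of 57.7 to 81.7%. This interval gives counting error only and takes exons as independent, which overlapping forms are not. Among the exons that held an intron 3.43% were called higher and 0.649% lower. The 2474 long exons without an intron inside had 15 higher and 8 lower calls, 0.606% and 0.323%. Both shares were below those over all tested exons, 1.31% and 0.698%.

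The difference between classes was also seen among exons of intermediate inclusion. With a mean inclusion of 20 to 80%, 28 of 142 exons with an intron inside were called higher (19.7%), against 8 of 155 unannotated exons without one (5.16%) and 4 of 107 annotated internal exons (3.74%). Their median changes were 5.91, 1.57 and 0.147 points. Over all exons with an intron inside, the median inclusion was 95.7%, 92.6% and 91.5% in siNT and 97.1%, 97.0% and 96.2% in siSFSWAP. These groups did not overlap, with a difference of 3.51 points (exact permutation p = 0.1, the smallest possible). Relative to the shorter exons of the same library the groups overlapped, and the difference was 1.69 points (exact permutation p = 0.2).

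Exons of this class are not separate observations. All 37 higher calls that held an intron shared a splice site with a shorter tested exon, and in 26 of them such a shorter exon was called higher too. Of all 52 higher calls 47 shared a splice site with a shorter tested exon, and of all 3552 long exons 2625 (73.9%) did. Of the 15 lower calls, 10 shared one with a shorter exon called lower. Reads over a shared junction count for both exons.

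**Figure D3:**
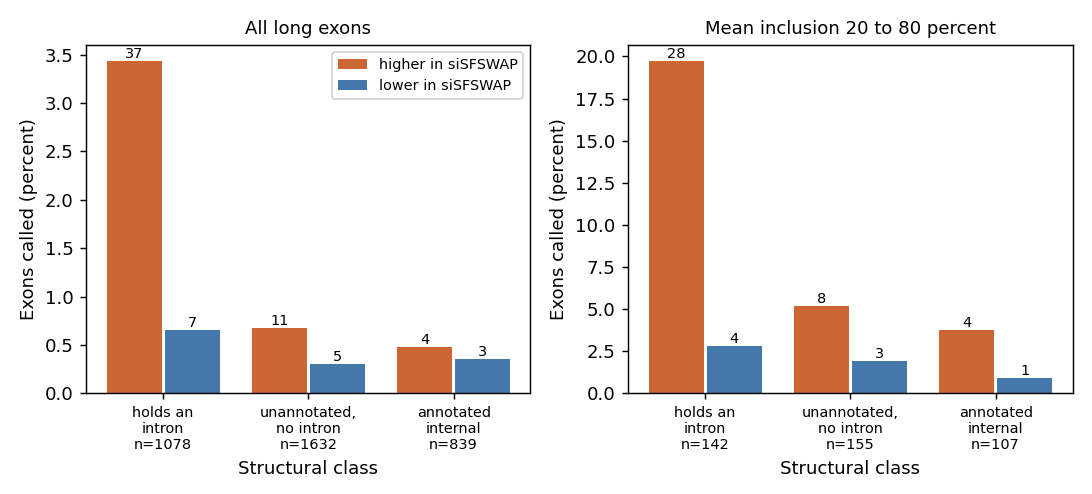
Share of long exons called higher (orange) or lower (blue) in siSFSWAP by structural class, over all long exons (left) and over those with a mean inclusion of 20 to 80% (right), with the number of calls above each bar. Exons that hold an intron take 37 of the 52 higher calls, and 19.7% of those with intermediate inclusion are called higher.

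The inner introns were looked up in the retained intron table, where they were tested in the same way. Inside the long exons 605 tested introns were found, of which 10 were called less retained and 1 more retained in siSFSWAP. That is 1.65% and 0.165%, beside 1.61% and 0.148% of all tested introns. Inside the exons called higher there were 31 tested introns with a median change in retention of -6.47 points, 28 of them below 0, and 2 were called less retained. Of the 605 introns inside any long exon 405 were below 0 (median -1.15 points), and of all 10155 tested introns 6212 were (median -0.52 points). Mean retention of these 31 had a median of 30.9% in siNT and 21.9% in siSFSWAP. The CHTF18 intron (a subunit of an alternative clamp loader) was retained at 65.0%, 77.6% and 76.5% in siNT and 38%, 49.7% and 47.3% in siSFSWAP (adjusted p = 0.00728). The block around it rose from 67.2 ± 9.45 to 91.2 ± 4.86% inclusion (adjusted p = 0.0245; 0.159 without siSFSWAP library a). The SCRIB intron (a cell polarity scaffold) fell from 30.7 ± 11.5 to 8.54 ± 3.97% retention (adjusted p = 0.0432). In SQSTM1 the inner intron was retained at only 1.13 ± 0.201% in siNT and 0.543 ± 0.271% in siSFSWAP.

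IRAK1, a kinase of interleukin-1 and Toll-like receptor signalling, has an unannotated 418-nt exon (chrX:154012245-154012662). Inclusion was 14.9%, 10.1% and 10.2% in siNT and 75%, 64.3% and 41.8% in siSFSWAP. It rose by 48.7 points (adjusted p = 3.76e-05), and the call was kept in all 6 fits without 1 library. SQSTM1 encodes the autophagy receptor p62, and its 490-nt block (chr5:179823834-179824323) was included at 31.7%, 30.6% and 33.3% in siNT and at 100%, 85.7% and 86.7% in siSFSWAP. This was the largest rise of any long exon (58.9 points, adjusted p = 0.00242), on 11 to 38 reads per library, and its adjusted p was 0.0667 without siSFSWAP library c. The kinase AKT1 had a 1135-nt block in its 5′ UTR that rose from 24.4 ± 4.06 to 51.0 ± 5.45% (adjusted p = 0.0124; 0.126 without siSFSWAP library c). MAPK12, a p38 kinase, rose from 38.8 ± 11.2 to 82.2 ± 7.77% (adjusted p = 0.00471; 0.0911 without siSFSWAP library a).

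DNA repair was represented by ERCC1 and POLM. ERCC1 is a subunit of the nuclease of nucleotide excision repair, and its 437-nt block (chr19:45413963-45414399) was included at 29.1%, 6.92% and 15.4% in siNT and at 52.9%, 55.1% and 50% in siSFSWAP. It rose by 35.5 points (adjusted p = 0.000537; 0.0767 without siSFSWAP library c). POLM, a polymerase of end joining, had a 400-nt block at 55.6%, 9.68% and 10.7% in siNT and 77.8%, 90.9% and 78.6% in siSFSWAP. It rose by 57.1 points (adjusted p = 0.0106), but siNT library a lay far from b and c, and the adjusted p was 0.209 without siSFSWAP library c. Of the fixed list of 100 repair genes, 24 had a long exon and 2 of their 34 exons were called higher (5.88%, beside 1.46% of all long exons).

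TRIM28, a corepressor that works with zinc finger proteins, had a 487-nt block with a mean of 776 reads per library. It was included at 73.9%, 38.1% and 35.7% in siNT and at 87.4%, 83.3% and 77.8% in siSFSWAP (adjusted p = 0.00341). It was kept in only 1 of 6 fits without 1 library, and the adjusted p was 0.225 without siSFSWAP library a. The zinc finger gene ZNF213 rose from 43.7 ± 8.14 to 90.7 ± 4.34% at a 394-nt block (adjusted p = 0.000194), kept in all 6 such fits. MLXIP, a glucose-responsive transcription factor, rose from 51.9 ± 17.2 to 88.4 ± 4.23% (adjusted p = 0.00954; 0.172 without siSFSWAP library a). Among 88 long exons of 67 genes with a zinc finger symbol, ZNF213 and ZNF274 were called higher (2.27%, beside 1.46% of all long exons). With limma on log2 odds the adjusted p was 0.022 for ZNF213, 0.0853 for TRIM28 and 0.0503 for MLXIP.

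Other large rises came from genes of varied function. FASTK, whose family acts on mitochondrial RNA, had a 348-nt block at 64.3%, 51.9% and 28.3% in siNT and 95%, 92.1% and 91.4% in siSFSWAP (adjusted p = 0.000645; 0.0713 without siSFSWAP library c). DENND5A, an exchange factor for Rab GTPases, rose from 46.8 ± 10.6 to 81.0 ± 3.56% at a 764-nt block (adjusted p = 0.000498; 0.0918 without siSFSWAP library a). SH3GLB2, an endophilin-like protein, rose from 26.2 ± 7.19 to 58.8 ± 4.07% (adjusted p = 0.00275; 0.075 without siSFSWAP library a). PKD1, the polycystic kidney disease gene, which has near-identical pseudogene copies so that its reads are uncertain, rose from 62.2 ± 16.8 to 93.2 ± 4.01% at a 300-nt exon (adjusted p = 0.0114; 0.23 without siSFSWAP library c). A gene known here only as ENSG00000288564 rose from 47.4 ± 4.77 to 78.8 ± 9.84% (adjusted p = 0.000134). The ENSG00000288564 call was kept in all 6 fits without 1 library, but its adjusted p was 0.0743 by limma on log2 odds. By that test FASTK kept its call (0.0222), and the adjusted p was 0.053 for DENND5A, 0.0547 for SH3GLB2 and 0.0573 for PKD1.

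**Figure D4:**
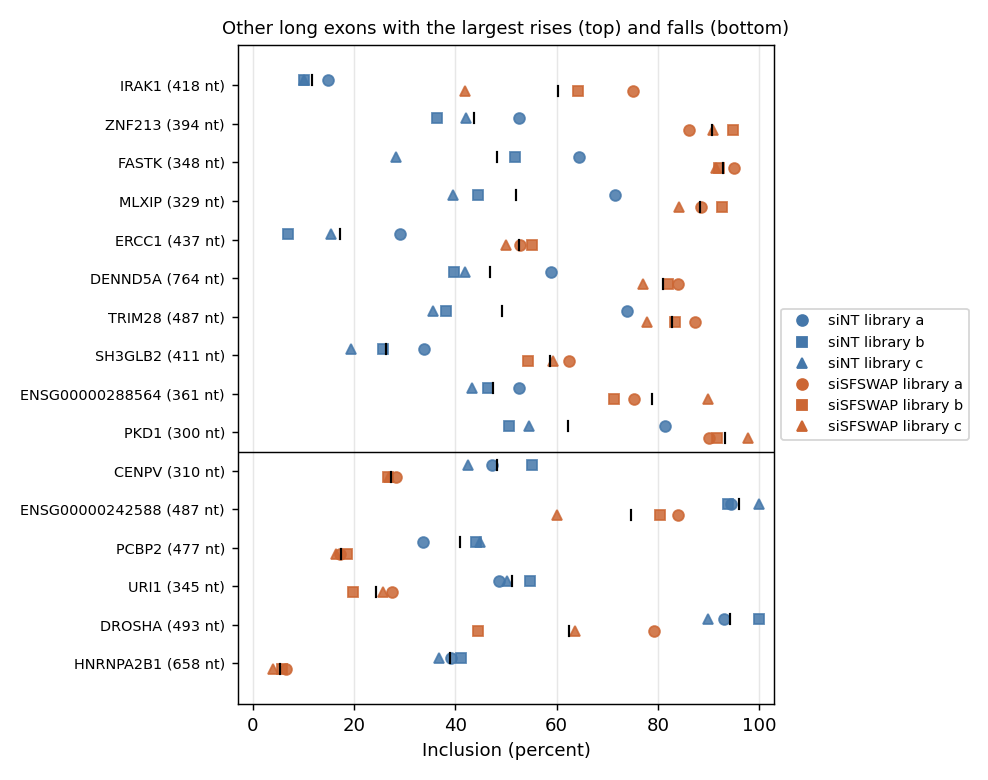
Inclusion in percent of the long exons with the largest rises (above the line) and falls (below it) among those of 50 or more reads per library on average, leaving out the annotated internal exons plotted on their own, with 1 point per library and a bar at each group mean. In all 10 rises siNT library a is the right-most blue point, and the groups are apart in every row.

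Among the falls with 50 or more reads per library on average, the largest was in HNRNPA2B1. HNRNPA2B1, an hnRNP that binds pre-mRNA, had 4 overlapping long exons at the 3′ end of the gene, which share sites and are not independent. The 658-nt form (chr7:26190993-26191650, in the 3′ UTR) was included at 39.0%, 41.1% and 36.8% in siNT and at 6.51%, 5.65% and 3.97% in siSFSWAP (adjusted p = 9.64e-10). The forms of 917, 1283 and 1346 nt had higher inclusion, from 96.4 ± 0.089% in siNT to 69.7 ± 4.79% in siSFSWAP for the 917-nt form (adjusted p = 4.69e-13). The other two changed by -26.6 and -26.3 points. The groups did not overlap in any of the 4, and all 4 calls were kept in all 6 fits without 1 library. Skipping reads, shared by the 4 forms, were 89, 38 and 30 in siNT and 431, 317 and 435 in siSFSWAP. The inner introns were retained at 95.8 ± 2.19% or more in siNT and at 95.8 ± 1.78% or more in siSFSWAP.

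PCBP2, a poly(C)-binding protein, had an unannotated 477-nt exon (chr12:53467805-53468281) with a mean of 1267 reads per library. It was included at 33.6%, 44.2% and 44.8% in siNT and at 17.2%, 18.7% and 16.4% in siSFSWAP, with no overlap. The change was -23.5 points, from 40.9 ± 6.29 to 17.4 ± 1.16% (adjusted p = 2.79e-08), kept in all 6 fits without 1 library but with an adjusted p of 0.0693 by limma on log2 odds. DROSHA, the nuclease that starts microRNA processing, fell from 94.3 ± 5.13 to 62.5 ± 17.5% at a 493-nt block (adjusted p = 0.0137; 0.174 without siSFSWAP library c and 0.0545 by limma on log2 odds). Of the fixed list of 144 splicing and RNA-binding genes, 61 had a long exon, and of their 131 exons 5 were called lower (3.82%, beside 0.422% of all long exons). These were 4 overlapping forms of HNRNPA2B1 and 1 exon of PCBP2.

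Outside that list, URI1, a prefoldin-like chaperone subunit, had a 345-nt exon at 48.7%, 54.7% and 50.2% in siNT and 27.5%, 19.7% and 25.8% in siSFSWAP (adjusted p = 2.75e-06). This call was kept in all 6 fits without 1 library, but limma on log2 odds gave an adjusted p of 0.0712. CENPV, a centromere protein, fell from 48.3 ± 6.41 to 27.3 ± 0.87% at a 310-nt exon (adjusted p = 0.00022), kept in 5 such fits, and had an adjusted p of 0.147 by limma on log2 odds. The latter was 0.0703 for ENSG00000242588. NOP56, a core protein of box C/D snoRNPs, was at 69.2%, 42.9% and 25.9% in siNT and 30.6%, 18.4% and 15.4% in siSFSWAP, the single lower call whose groups overlapped (adjusted p = 0.0481; 0.447 without siNT library a). FAM118A fell from 92.5 ± 7.70 to 56.9 ± 6.45% (adjusted p = 0.0161; 0.13 without siSFSWAP library c). The gene ENSG00000242588, a lncRNA, had overlapping forms of 483 and 487 nt, the latter falling from 96.1 ± 3.36 to 74.8 ± 12.9% (adjusted p = 0.0238; 0.247 without siSFSWAP library c). These forms were the only calls among 66 long exons of lncRNA genes, and both were lower.

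Base composition differed between the calls of each direction. The median GC content was 51.5% over the long exons, 59.0% for those called higher and 40.6% for those called lower. The shorter exons had the same order, at 50%, 61.2% and 43.1%. The introns before the exons had a median GC content of 62.2% for higher calls, 40.0% for lower calls and 47.0% over all long exons. The introns beside the risen exons were short, with medians of 470.5 nt before and 432 nt after the exon, against 1510 and 1574 nt over the long exons. The acceptor score had a median of 6.03 for higher calls, 8.23 for lower calls and 7.88 for all long exons, while the donor scores were 7.36, 6.29 and 7.41. The acceptor median of the lower calls is the score of an acceptor that overlapping forms of HNRNPA2B1 share. For the shorter exons the acceptor median was 5.78 for higher calls, against 8.02 over all of them. The 514 long exons under 40% GC held 7 of the 15 lower calls, and the 787 over 60% GC held 23 of the 52 higher calls. All the overlapping forms of HNRNPA2B1 are among these 7. The 15 lower calls lay in 11 loci, so their medians lean on this gene.

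Across the 404 long exons of intermediate inclusion, the change in inclusion and GC content had a Spearman rho of 0.40 and a Pearson r of 0.40. Across 4466 shorter exons these were 0.42 and 0.41. These are correlations across exons that share the same 6 libraries, and exons are not independent replicates. The difference of siNT library a from libraries b and c had a rho of 0.38 with GC content over the same long exons. Measured against siNT library a alone, the rho of the change was 0.23, and without that library it was 0.43. The rho was lower over the 262 of these exons without an intron inside. There it was 0.29 for the change, 0.09 against siNT library a alone and 0.33 without that library. For the difference of siNT library a from b and c it was 0.33 in those 262. GC content thus varied with the spread between siNT libraries as well as with the change in siSFSWAP, and its part in the result was not tested. By GC class, the median change was -4.54 points in 52 exons under 40% GC, -2.15 in 97 of 40 to 50%, 4.45 in 135 of 50 to 60% and 11.2 in 120 over 60%.

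**Figure D5:**
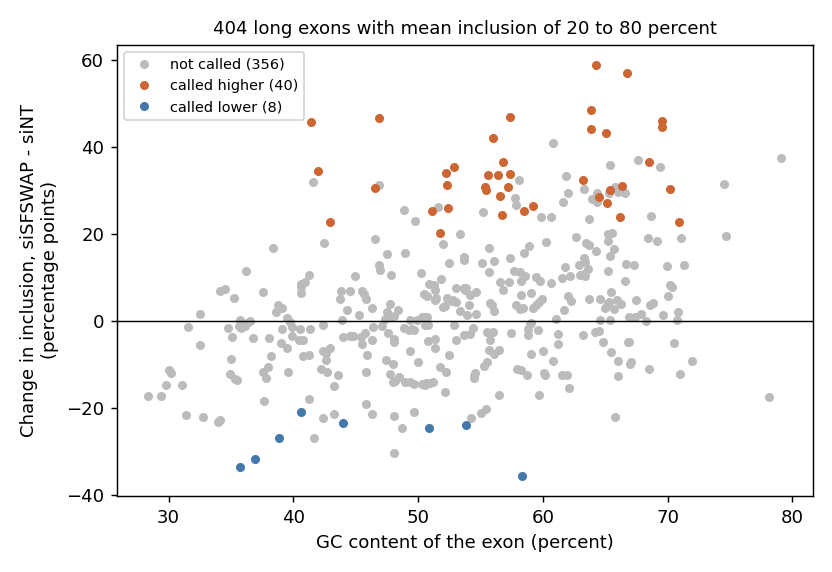
Change in inclusion (percentage points, siSFSWAP minus siNT) against GC content of the exon in percent, 1 point for each of 404 long exons with a mean inclusion of 20 to 80%. Orange points are the 40 exons called higher, blue the 8 called lower, and grey the rest. The median change goes from -4.54 points under 40% GC to 11.2 points over 60% GC.

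Reading frame and coding status were described by counts, and differences between their classes were not tested. A length divisible by 3 was found in 36.2% of the long exons, in 18 of 52 higher calls (34.6%) and in 4 of 15 lower calls. Of 433 wholly coding long exons, 3 were called higher (0.693%, VCAN, NIN and MKI67) and 2 lower (0.462%, WNK1 and PIGG). The PIGG exon, of 310 nt, is the one of these whose length is not divisible by 3. Of 41 long exons in 3′ UTRs, 3 were called lower (7.32%, beside 0.422% of all long exons). All 3 were overlapping forms of HNRNPA2B1, which are not independent. Of 63 in 5′ UTRs, 3 were called higher (4.76%, beside 1.46% of all long exons), in AKT1, TRMT2B and ZC3H11A. Of 268 long exons of noncoding transcripts, 7 were called higher (2.61%, beside 1.46% of all long exons) and 0 lower. All 7 held an intron, and all lay in protein-coding genes. Most members, 2381 of 3552, are not annotated as internal exons at these exact ends. Of these, 37 were called higher (1.55%) and 8 lower (0.336%).

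Of 30 genes with textbook long exons 11 had a measured long exon, 15 exons in all, and MKI67 exon 7 was the one call. The 4755-nt exon of ASPM, a spindle pole protein, was included at 86.1 ± 3.69% in siNT and 85.6 ± 6.13% in siSFSWAP. NUMA1, a spindle organiser, had a 3366-nt exon at 99.5 ± 0.0887 and 99.6 ± 0.388%. RIF1 and PLEC had exons of 3237 and 3381 nt, with changes of -2.22 and -2.03 points. MAP4, a microtubule-binding protein, had an exon of 3384 nt that was mostly skipped, at 5.53 ± 1.48 and 5.41 ± 0.585%, and one of 1224 nt that was mostly kept, at 99.5 ± 0.72 and 99.1 ± 0.564%. MDC1, a mediator of the DNA damage response, had a 792-nt exon at 86.7%, 85.9% and 86.5% in siNT and 93.7%, 90.1% and 95.1% in siSFSWAP. Its groups did not overlap, but the adjusted p was 0.114. DST, SYNE2 and TP53BP1 changed by -3.41, -0.35 and -2.22 points, and exons of ATXN2 by 13.9 and -2.19 points, with no call.

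Of the genes that the study discusses, 5 had a long exon. OGT, the O-GlcNAc transferase, had a 3457-nt block from exon 4 onwards (chrX:71544567-71548023) that holds 7 annotated introns. It was included at 99.4%, 96.2% and 99.1% in siNT and 98.9%, 98.0% and 99.1% in siSFSWAP (adjusted p = 0.979). The outer junctions of this block read the same with its inner introns kept or removed, so these values do not measure their retention. The 471-nt exon that starts at the same base was at 86.5 ± 7.50 and 81.8 ± 9.92% (adjusted p = 0.406). The labels name no inhibitor of O-GlcNAc enzymes. In untreated cells the study saw no obvious change in read coverage at the OGT retained intron. By RT-qPCR, however, it reported more spliced OGT RNA after SFSWAP knockdown without an inhibitor (DMSO) as well as at high O-GlcNAc. It describes its OGT effect as clearest at high O-GlcNAc. The OGA block, 397 nt, went from 97.4 ± 0.279% in siNT to 94.0 ± 2.87% in siSFSWAP (adjusted p = 0.628). IFRD2 had a 316-nt block at 86.4%, 58.5% and 53.8% in siNT and 93.8%, 100% and 100% in siSFSWAP, or 31.7 points higher (adjusted p = 0.063). It had 19 to 55 reads per library, with skipping reads of 4, 11 and 6 in siNT and 1, 0 and 0 in siSFSWAP. This is inclusion of the whole block, not intron retention. The study shows IFRD2 as an example of greater removal of a retained intron, which is another measure. SF3B1, a core subunit of the U2 snRNP, had a 745-nt exon at 0.478 ± 0.304 and 0.164 ± 0.143% (adjusted p = 0.451). A 304-nt exon of SFSWAP itself was included at 97.1 ± 4.28 and 100% (adjusted p = 0.582), on 19 to 42 reads per siSFSWAP library. GFUS, ARGLU1, FN1, MAPT and PTPRC had no long exon among the members.

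The calls in the other lists are read against 1.46% higher and 0.422% lower over all long exons. Of 93 long exons of chromatin genes, 1 was called higher (1.08%; MBD1, a methyl-CpG-binding protein). Of 72 of mitosis and centrosome genes, 2 were called higher (2.78%; MKI67 and HAUS5, a subunit of augmin). Of 61 of signalling and ubiquitin genes, 3 were called higher (4.92%; AKT1, IRAK1 and TRIM28) and 1 lower (1.64%; CUL5). The median change in these lists was 0.42, -0.191 and 0.88 points, beside 0.348 points over all long exons.

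The longest members did not pass the test. ZNF195 had a 7113-nt block with 5 annotated introns inside, at 17.6 ± 2.64 and 15.1 ± 4.17%. DNAJB6, a co-chaperone, had a 5735-nt exon at 84.8%, 64.9% and 57.5% in siNT and 81.0%, 79.2% and 81.1% in siSFSWAP, where siNT library a was above all siSFSWAP libraries (adjusted p = 0.584). TCF20, a transcriptional coregulator, had a 5691-nt exon at 93.7 ± 4.17 and 97.3 ± 2.48%. The 5589-nt exon of NACA, which makes the muscle form of this ribosome-associated protein, was included at 0.061 ± 0.024% in siNT and 0.0167 ± 0.0289% in siSFSWAP. GOLGB1, a Golgi tether, had a 5189-nt exon at 99.1 ± 1.56 and 97.5 ± 2.30%.

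The exons with most reads were blocks of the ribosomal protein genes RPS2 and RPL7A, which have many processed copies in the genome so that their counts are uncertain. Group means of all 5 were 99.9% or more. At the length threshold, the members just inside it, of 300 nt, were exons of ATF4 (99.6 ± 0.302 and 99.7 ± 0.0708%), POLR2G (98.3 ± 0.376 and 96.7 ± 1.13%) and JMJD8 (85.2 ± 9.60 and 98.6 ± 0.811%). Just outside it, 1 nt shorter, were exons of RABL6 (1.15 ± 0.0954 and 1.5 ± 0.695%) and TUBB4B (98.7 ± 1.32 and 99.8 ± 0.238%), with 1 more that is not described.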

How the data were processed

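Polyadenylated RNA of the 6 samples was made into libraries with a KAPA kit and sequenced from 1 end. Per the submitters' processing notes and the study's methods, the authors used cutadapt 1.9.1 for trimming and STAR 2.7 in 2-pass mode for alignment to GRCh38 (GENCODE release 40), and then ran rMATS. The deposited tables list, per event, junction read counts of each library and effective lengths, which are other units than expression. They also hold the authors' p-values and inclusion differences, which were not used. No source used here gives the strandedness.

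Counts were kept as deposited. Inclusion was taken from counts divided by effective lengths (99 nt for skipping and up to 198 nt for inclusion). Each of 48100 events with 20 or more reads per library on average, 5 reads of each form and reads in 2 libraries of each group was tested with a quasi-binomial F test. Its dispersion was moderated over all events with limma 3.58.1 (trend on depth, floor of 1) in R 4.3.3, and p values were adjusted by Benjamini-Hochberg over these events. The test was checked on simulated data. SFSWAP reads were summed per gene as CPM and compared with limma on log2(CPM + 0.5). Exon structure, GC content and splice sites came from GRCh38 and GENCODE release 44. An exon was called annotated only when both ends matched. P values rest on 3 libraries per group. In the exon test the dispersion of each exon was drawn towards that of all events, with 22.0 prior degrees of freedom. Its p values thus do not measure the spread of that exon's own libraries alone. At a median of 69 to 194 reads per tested exon and library, small changes could not be detected.

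The members and gene lists were chosen with earlier results of these data known. Exons were named by rule: per direction, up to 10 called exons with the largest change, 1 per gene, with 50 or more reads on average and groups that did not overlap; the 5 longest; the 5 with most reads; exons of listed genes; and those beside the length threshold. The called annotated internal exons, and SQSTM1, MAPK12, FAM118A, NOP56, CHTF18, SCRIB, WDR90 and TRMT2B, were named after their values were seen. Some items are not reported here.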

Additional observations from a re-analysis of the deposited data

How the results depend on the processing

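The higher and lower counts of 52 and 15 stayed within 1.5 times with no floor on the dispersion, moderation without a trend, dispersion from the residual deviance (added after seeing the data), change from summed counts, a length of at least 250 nt and all events of each exon. They were 28 and 7 with limma on log2 odds. The higher count was 34 with a mean of at least 50 reads, 95 with a change of at least 0.1 and 27 with a length of at least 400 nt. The lower count was 9 with 1 exon per locus. Without exons that hold an intron (added after seeing the data) the counts were 15 and 8. Leaving out 1 library gave 7 to 110 higher and 6 to 13 lower calls. Apart from the settings that test fewer exons or libraries or move the threshold, the cause was not tested. Of the 23 exons named for their change or their annotation, between 8 (without siSFSWAP library c) and 20 (without siNT library a) kept their call when 1 library was left out, 9 kept it with limma on log2 odds, and none changed direction under any setting. The difference of 4.28 points in median inclusion ran from 2.87 to 6.38 points without 1 library and was 2.24 points over exons averaging 50 or more reads. The share of higher calls that hold an intron was 65.9 to 73.6%, and their median GC content 58.2 to 62.3%, over the alternatives. The log2 change of SFSWAP was -1.58 to -1.23 without 1 library and passed the test under every alternative.

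No paired analysis was possible because the lists of values in the deposited tables carry no replicate numbers, and a list position is not a label that ties a value to a numbered sample.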
